A study of Homo sapiens with 16 samples.

Results

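ARID1A, the gene the study targeted, was examined as a chromatin locus in the human colon cancer cell line HCT116 by chromatin immunoprecipitation sequencing (ChIP-seq). It lies on the forward strand of chromosome 1, bases 26696015 to 26782104 of GRCh38 (hg38), and is 86.1 kb long. Its members were chosen by position: every peak of the 20 deposited peak lists that overlapped the gene body extended by 1 kb on each side, 159 of 2616578 peaks on chromosomes 1 to 22 and X. Of the 159, 51 came from lists called against input and 108 from lists called against IgG. The locus was singled out because the shARID1A SETDB1 and TRIM28 libraries were already known to have high peaks there, so those values are a description and were not tested.

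Cells labelled shARID1A had SETDB1, TRIM28 and H3K9me3 libraries. Cells labelled CTR, read as the shCtrl cells of the series' design text, had these and an ARID1A library. HCT116 cells with no shRNA in their title, called unmodified here, had TRIM28, H3K9me3 and ARID1A libraries. All were grown in RPMI1640 with serum, and no source used here gives the shRNA sequence, its vector or whether the cells were a clone or a pool. Each group held 1 library, called by the authors against input and against IgG, so no difference between states has a replicate check. No ARID1A library of shARID1A cells was used here and the level of ARID1A was not measured, so libraries go by their labels. For TRIM28 and H3K9me3, the antibody product in the protocol differs from that in the sample characteristics.

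ARID1A is the DNA-binding subunit of the canonical BAF form of the SWI/SNF complex, which moves nucleosomes at enhancers and promoters. The gene is often mutated in tumours. TRIM28 (also called KAP1) is brought to DNA by KRAB zinc finger proteins and recruits SETDB1, which methylates lysine 9 of histone H3. The product, H3K9me3, is bound by HP1 proteins and marks silent chromatin such as repeats and zinc finger gene clusters.

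The 5′ end of the gene is shown first, because the highest peaks lay just inside it. A second annotated protein-coding gene, LOC124900417, starts there on the reverse strand and overlaps the first bases of ARID1A. The RefSeq promoter windows of both genes (GRCh38.p14, 250 bases before to 50 after the start, each written 5′ to 3′ on its own strand) are printed below. The ARID1A window is chr1:26695765-26696064 on the forward strand, with GC boxes (GGGCGG or its complement) in capitals. The LOC124900417 window is chr1:26696356-26696655 on the reverse strand. Its capitals mark the 282 of 300 bases that lay inside the gene's highest SETDB1 peak of shARID1A cells against input. This window also lies inside the ARID1A body, so the peak is not assigned to the promoter of either gene. Whether these bases are exon sequence of ARID1A was not tested.
ARID1A: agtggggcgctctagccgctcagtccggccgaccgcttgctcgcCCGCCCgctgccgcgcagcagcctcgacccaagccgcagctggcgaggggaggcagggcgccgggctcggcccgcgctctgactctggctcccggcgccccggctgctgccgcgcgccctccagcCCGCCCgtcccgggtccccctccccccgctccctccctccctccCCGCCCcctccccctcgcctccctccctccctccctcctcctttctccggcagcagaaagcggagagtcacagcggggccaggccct
LOC124900417: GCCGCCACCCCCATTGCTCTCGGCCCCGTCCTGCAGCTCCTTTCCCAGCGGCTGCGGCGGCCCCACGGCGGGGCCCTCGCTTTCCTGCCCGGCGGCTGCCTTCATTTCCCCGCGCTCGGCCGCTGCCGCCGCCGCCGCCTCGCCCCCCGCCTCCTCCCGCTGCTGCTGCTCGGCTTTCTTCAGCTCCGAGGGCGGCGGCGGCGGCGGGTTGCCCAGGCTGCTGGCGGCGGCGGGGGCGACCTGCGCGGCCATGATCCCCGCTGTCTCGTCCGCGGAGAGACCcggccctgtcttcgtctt
The ARID1A window held 33 CG dinucleotides and 78.0% G and C, and the other window 41 and 76.7%, against medians of 14 and 58.7% over 34961 promoter windows. Searched on both strands, GGGCGG occurred 3 times in the ARID1A window and once in that of LOC124900417, and in 45.0% of all windows. Neither window held the CCAAT box (34.6% of all windows), the TATA box TATAAA (11.5%), the ETS motif CCGGAAG (10.3%) or the AP-1 motif TGANTCA (7.68%). No match says only that these letters were not in the windows.

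In shARID1A cells the SETDB1 library had 10 strong peaks in the gene against input, where strong means a q of at most 0.05. The TRIM28 library had 6 and the H3K9me3 library 1. In shCtrl cells SETDB1 had 1, and TRIM28, H3K9me3 and ARID1A had 0. In unmodified cells TRIM28, H3K9me3 and ARID1A had 0. Against IgG the shARID1A numbers were 11, 7 and 1, the shCtrl numbers 2 for SETDB1, 0 for TRIM28, 1 for H3K9me3 and 1 for ARID1A, and the unmodified ones 0. Of the 41 strong peaks in all 20 lists, 36 came from shARID1A cells. A place called with both controls counts in each list, and the peaks lay at 14 places. Over the genome the number of strong peaks in a list ran from 15 (unmodified H3K9me3 against input) to 55343 (shCtrl SETDB1 against IgG). A peak list does not show whether its fragments came from the chromosomal gene or from other DNA with ARID1A sequence, such as a cDNA. Whether the peaks match the exons was not tested. This limit holds for every peak position, count, overlap, fold and fragment number of the gene given here.

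A strong peak was common in some libraries and rare in others. Among 19974 protein-coding genes extended in the same way, 3.91% had a strong peak against input in shARID1A SETDB1, 3.88% in shARID1A TRIM28 and 17.4% in shARID1A H3K9me3. The shares were 43.5% in shCtrl SETDB1, 0.035% in shCtrl TRIM28, 11.7% in shCtrl H3K9me3 and 0.0851% in shCtrl ARID1A. They were 0.025% in unmodified TRIM28, 0.01% in H3K9me3 and 1.96% in ARID1A. Against IgG they were 19.8%, 10.4% and 48.3% in shARID1A SETDB1, TRIM28 and H3K9me3. The shCtrl shares against IgG were 58.1% for SETDB1, 0.741% for TRIM28, 22.8% for H3K9me3 and 7.6% for ARID1A, and the unmodified ones 0.0601% for TRIM28, 0.0501% for H3K9me3 and 2% for ARID1A. Against input, 3480 other genes had at least 1 strong peak in shARID1A H3K9me3, and 8683 in shCtrl SETDB1, so 1 such peak in ARID1A was common there.

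**Figure D1:**
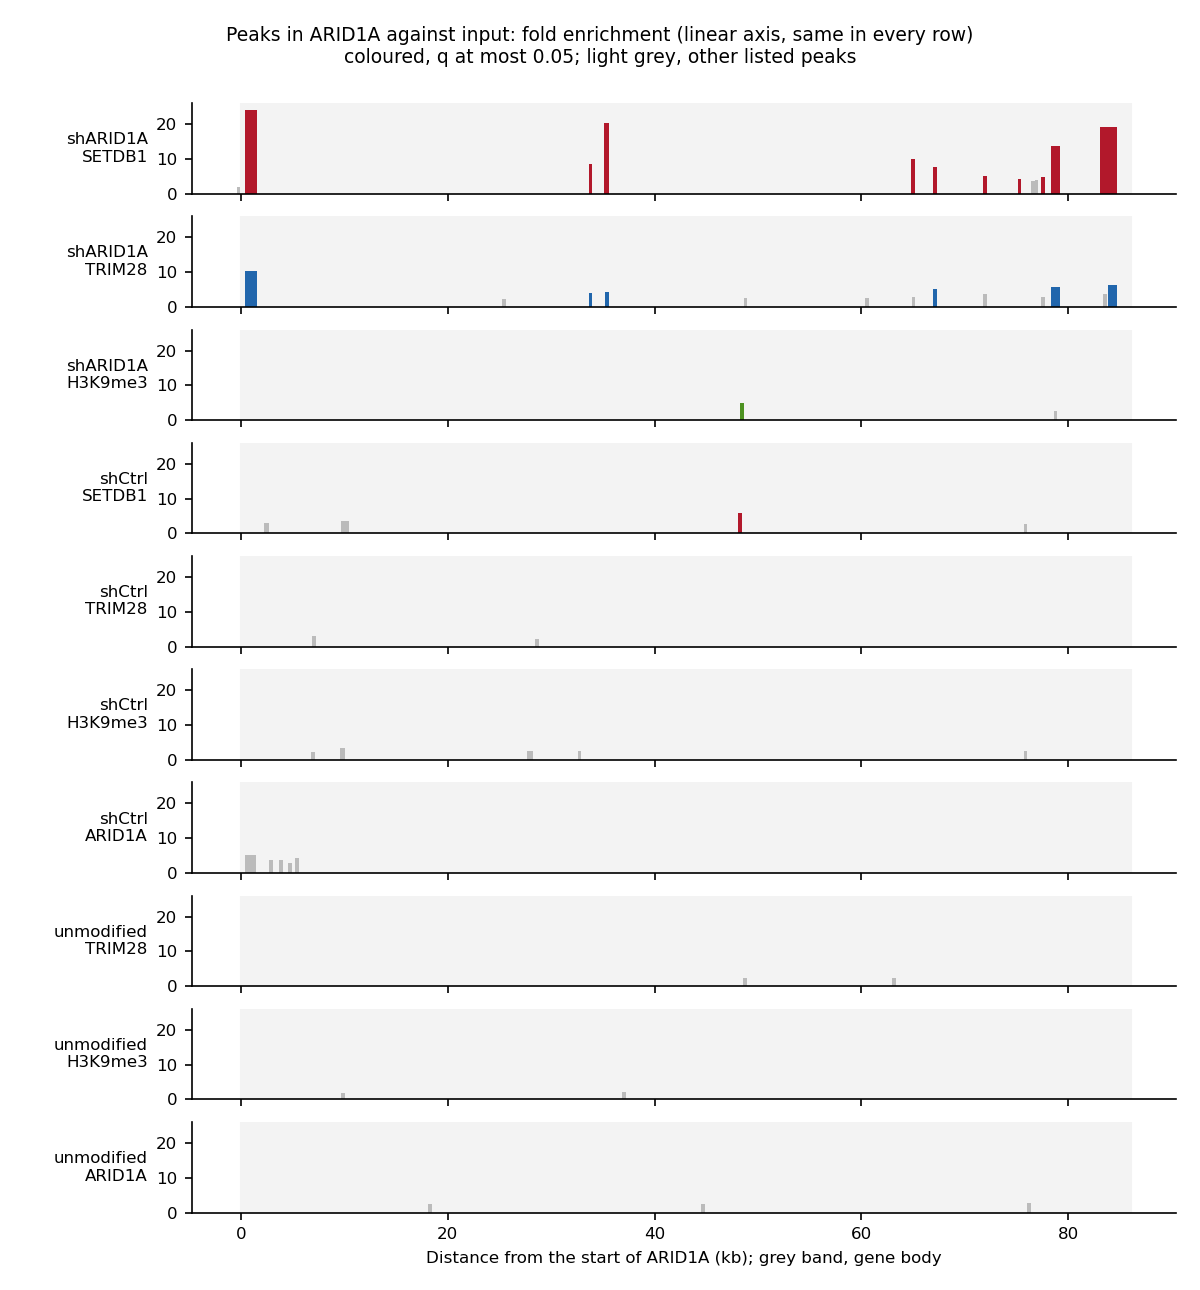
Peaks of the 10 libraries in ARID1A against input, by distance from the gene start (kb, narrow peaks drawn wider than they are) and the authors' fold enrichment (linear axis from 0). The shARID1A SETDB1 and TRIM28 rows hold 16 of the 18 strong peaks, in separate narrow blocks, and the shCtrl ARID1A row has its 5 peaks at the 5′ end.

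The number of strong peaks in one gene set ARID1A apart in these libraries. In shARID1A SETDB1 against input, 758 genes had 1 strong peak, 21 had 2, ZFPM1 had 3 and ARID1A had 10. In shARID1A TRIM28 the next gene was WDPCP with 4, in a body of 721 kb, and 6 genes had 3. Against IgG the next genes were ZBTB20, 833 kb long, with 10 SETDB1 peaks against 11 in ARID1A, and PLEC and PCDH7 with 5 TRIM28 peaks each against 7. ARID1A thus stood first of 19974 genes in all 4 of these lists, which was known when the gene was chosen.

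**Figure D2:**
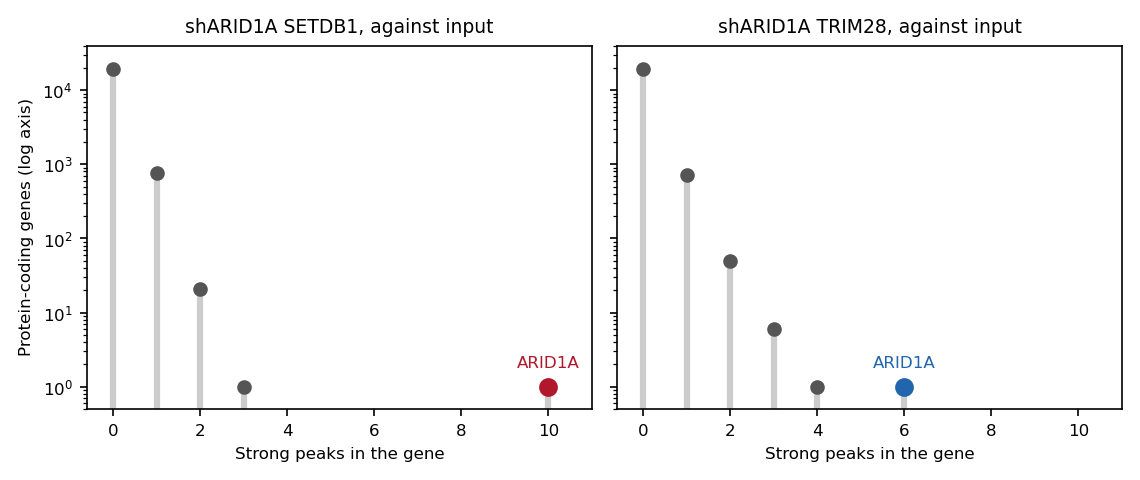
Number of protein-coding genes (log axis) by the number of strong peaks they held in the shARID1A SETDB1 (left) and TRIM28 (right) lists against input. ARID1A, in colour, lies at 10 and 6, and the next genes at 3 and 4.

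The tallest peak lay at the 5′ end of the gene. In shARID1A SETDB1 it ran from 26696374 to 26697576 against input, with a fold enrichment of 24.0 over the local background, and from 26696185 to 26698555 against IgG, with 36.0. These folds ranked 2 of 39245 and 1 of 276586 peaks in their lists. In shARID1A TRIM28 the peak at 26696413 to 26697570 had a fold of 10.5 against input, and that at 26696392 to 26697661 had 15.5 against IgG. Both libraries thus had their highest peak of the gene there with either control.

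Fragment numbers, recovered from the deposited fold and p, show what stood behind these folds. In shARID1A SETDB1 the summit was covered by 78 fragments (exact Poisson 95% interval 61.7 to 97.3, counting error only) over a background of 2.27 from input and 1.20 from IgG. In shARID1A TRIM28 it was covered by 32 (21.9 to 45.2), over 2.15 and 1.12. In shCtrl ARID1A the peak at 26696398 to 26697440 had 11 fragments (5.49 to 19.7), over 1.13 with either control, a fold of 5.16 against input (q 0.221) and 5.63 against IgG (strong). Each number of fragments was the same from the input and the IgG list, as 1 library must give. The folds differed through the background and through the scale the peak caller gave each library in each list.

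No peak was listed at the summit in shARID1A H3K9me3, in shCtrl SETDB1, TRIM28 and H3K9me3, or in any unmodified library. The nearest entry of shCtrl SETDB1 lay further in, at 26698204 to 26698755 against input, with a fold of 3.10, and shARID1A H3K9me3 had one at 26698023 to 26698291 against IgG with 3.18. The depth of the shARID1A and shCtrl libraries was alike by this measure. The most common background was 1.20 fragments in shARID1A SETDB1, 1.12 in TRIM28 and 1.20 in H3K9me3, against 1.28, 1.16 and 1.23 in shCtrl SETDB1, TRIM28 and H3K9me3, and 1.13 in shCtrl ARID1A. The unmodified libraries were deeper by it, with 2.91 for TRIM28, 3.68 for H3K9me3 and 3.09 for ARID1A. At its own most common background a summit in shCtrl SETDB1 needed 5 fragments against input and 4 against IgG to reach an unadjusted p of 0.05. A site without a listed peak may still carry signal below that level.

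Against input the tall SETDB1 peak began 310 bases after the end of the ARID1A promoter window printed above. The window itself held no strong SETDB1 peak with either control. It overlapped weak SETDB1 peaks of shARID1A cells, at 26695600 to 26695805 against input (fold 2.04) and at 26695525 to 26695980 against IgG (3.19). A strong TRIM28 peak of these cells met it against IgG alone, at 26695056 to 26695984 with a fold of 4.24 and 8 fragments. So did a weak H3K9me3 peak against IgG, at 26695566 to 26695770 with a fold of 2.27. A strong peak within 1000 bases of a promoter window was found at 1.72% of 34961 windows in shARID1A SETDB1 and at 0.858% in shARID1A TRIM28 against input, and at 8.85% and 3.77% against IgG. For shCtrl ARID1A against IgG, whose strong peak lay there too, the share was 2.88%.

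Further along the gene the strong SETDB1 peaks of shARID1A cells formed separate narrow blocks. They were 230 to 1659 bases wide (median 436, against 345 over all 1363 strong peaks of the list) and together covered 6135 bases, or 6.96% of the extended gene. The longest stretch between 2 of them ran over 32066 bases, from the first block to the next. With the gene cut into 5 equal parts, the part at the 3′ end held 5 of the 10, the fourth part 2, and each of the others 1. The annotation used here gave RefSeq gene bodies without exons, so the blocks were not placed on exons or introns, and the limit on the source of the fragments given above was not settled.

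The second block, at 26729643 to 26729887, lay 33.8 kb from the gene start and had a SETDB1 fold of 8.41 with 21 fragments. Beside it, at 26731137 to 26731617 (35.4 kb), SETDB1 reached 20.4 with 62 fragments. TRIM28 was strong at both but lower, with folds of 4.04 and 4.29 and with 9 and 11 fragments. The pair was listed in both control lists of both libraries, and in 0 lists of shCtrl or unmodified cells. At 35.4 kb shARID1A H3K9me3 also had a weak peak against IgG, with a fold of 2.79.

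The next blocks lay at 65.0, 67.1 and 71.9 kb. At 65.0 kb (26760845 to 26761108) SETDB1 had a fold of 9.91 against input and 5.72 against IgG from the same 21 fragments. There the background was 1.20 fragments from input and 2.85 from IgG. At 67.1 kb (26762954 to 26763344) the order of the controls was reversed, with a SETDB1 fold of 7.59 against input and 13.5 against IgG from 38 fragments. Its background was 4.12 from input and 1.90 from IgG, and TRIM28 likewise had 5.23 and 10.5 from 25 fragments. At 71.9 kb (26767778 to 26768007) SETDB1 had 5.03 with 13 fragments and TRIM28 3.77 with 9, short of strong.

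Blocks at 75.3, 77.6, 78.7 and 83.9 kb followed. SETDB1 folds there were 4.24, 4.79, 13.7 and 19.2 against input, from 15, 11, 32 and 52 fragments. The last block was the widest, from 26779053 to 26780711. TRIM28 was strong at 78.7 kb (26774381 to 26775227, fold 5.71, 12 fragments) and at 83.9 kb (26779886 to 26780699, fold 6.26, 16 fragments). At 77.6 kb TRIM28 had 2.92 and at 75.3 kb it was listed against IgG only, with 2.47. A further SETDB1 block at 76.9 kb (26772759 to 26773005) was strong against IgG, with 4.35, and not against input, with 3.90 and a q of 0.107.

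**Figure D3:**
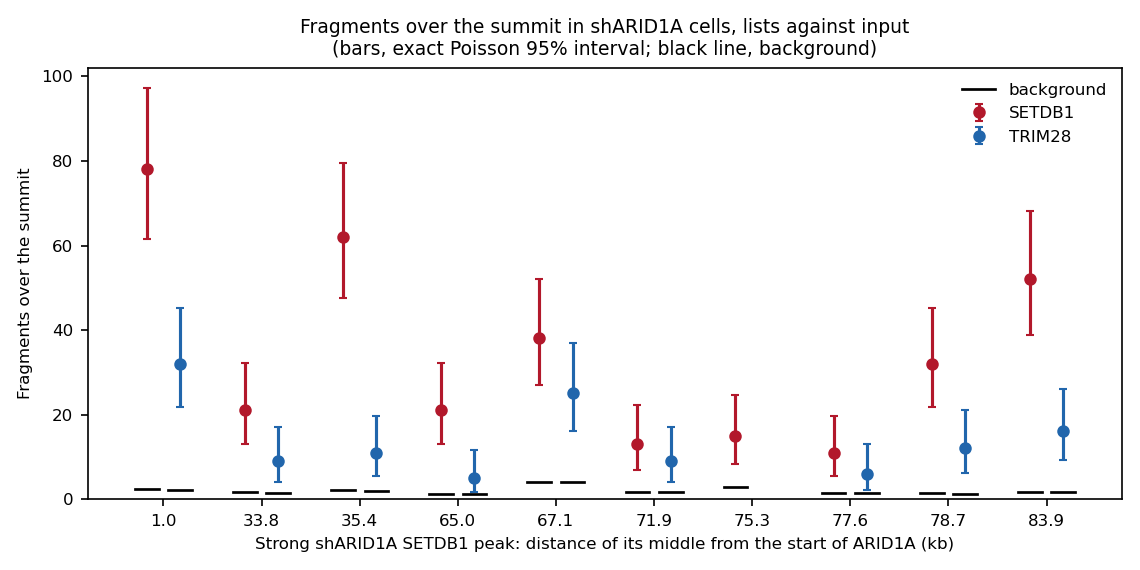
Fragments over the summit of the 10 strong SETDB1 peaks of shARID1A cells and of the tallest TRIM28 peak that met each. Lists are against input, with exact Poisson 95% intervals, and paired summits can lie apart. SETDB1 runs from 11 to 78 and TRIM28 from 5 to 32, and the background (black line) stays at or below 4.12.

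Strong TRIM28 peaks lay at strong SETDB1 peaks along the gene. All 6 strong TRIM28 peaks against input met a strong SETDB1 peak by at least 1 base, and 9 of the 10 strong SETDB1 peaks met a TRIM28 peak of any strength. Over the whole genome 8.68% of 2119 strong TRIM28 peaks met a strong SETDB1 peak, and 46.1% of 1363 strong SETDB1 peaks met any TRIM28 peak. Against IgG the gene gave 6 of 7 and the genome 13.4% of 3776. Both lists were taken to share a control library, and the gene was chosen for these peaks, so the counts are a description. Whether other DNA with ARID1A sequence in both libraries gave the overlap was not tested. For each shared peak the tallest TRIM28 peak it met was taken. The TRIM28 summit lay 15 (67.1 kb) to 697 bases (83.9 kb) from the SETDB1 summit, and 147 at the first block. At 83.9 kb a weaker TRIM28 peak, at 26779360 to 26779702 (fold 3.82, 9 fragments), had its summit nearer. Over the 9 shared peaks the SETDB1 and TRIM28 folds had a Spearman correlation of 0.683 and a Pearson correlation of 0.749. The TRIM28 fragments were 0.177 of the SETDB1 fragments at 35.4 kb, 0.410 at the first block, 0.658 at 67.1 kb and 0.692 at 71.9 kb, so the ratio was not constant.

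H3K9me3 in shARID1A cells did not share these positions among its strong peaks. The 1 strong H3K9me3 peak lay at 48.3 kb, at 26744264 to 26744534 against input, with a fold of 4.81 and 11 fragments, and at 26744180 to 26744557 against IgG, with 4.05. SETDB1 of the same cells had no listed peak there. Of the 10 strong SETDB1 peaks, 1 met an H3K9me3 peak of any strength against input, in the block at 78.7 kb, with a fold of 2.50. Over the genome 52.9% of strong shARID1A SETDB1 peaks met one. Against IgG it was 5 of 11 in the gene and 54.5% over the genome, with H3K9me3 folds of 2.11 to 3.18 at those places.

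The block at 48.3 kb was the single strong one of shCtrl cells against input. SETDB1 had a fold of 5.99 there, at 26744065 to 26744443, from 24 fragments (15.4 to 35.7), and 6.19 against IgG from the same 24. It thus overlapped the strong H3K9me3 peak of shARID1A cells, and shCtrl H3K9me3 had no listed peak at that place. A weak TRIM28 peak began just beyond, at 26744614 to 26744814 in shARID1A cells (fold 2.50 against input) and at 26744549 to 26744867 in unmodified cells (2.43). The fold of 5.99 ranked 7855 of 79404 peaks in its list. Of the strong SETDB1 peaks of shARID1A cells in the gene, 0 of 10 met a SETDB1 peak of shCtrl cells against input and 0 of 11 against IgG, where over the genome 46.1% and 42.7% did.

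A second place was shared by shCtrl libraries, about 9.9 kb into the gene. SETDB1 had a fold of 3.43 against input at 26705655 to 26706430 and 3.64 against IgG, where it was strong. H3K9me3 of shCtrl cells had 3.53 at 26705559 to 26706055 and 3.83, strong against IgG alone. Weak peaks of shCtrl TRIM28 (2.04) and shCtrl ARID1A (2.10) lay there against IgG. Unmodified H3K9me3 had one against input, at 26705694 to 26706012, with a fold of 1.93. None of the shARID1A lists had a peak at this place. At 75.7 kb shCtrl SETDB1 and H3K9me3 again had overlapping peaks, with folds of 2.70 and 2.56 against input, neither strong.

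**Figure D4:**
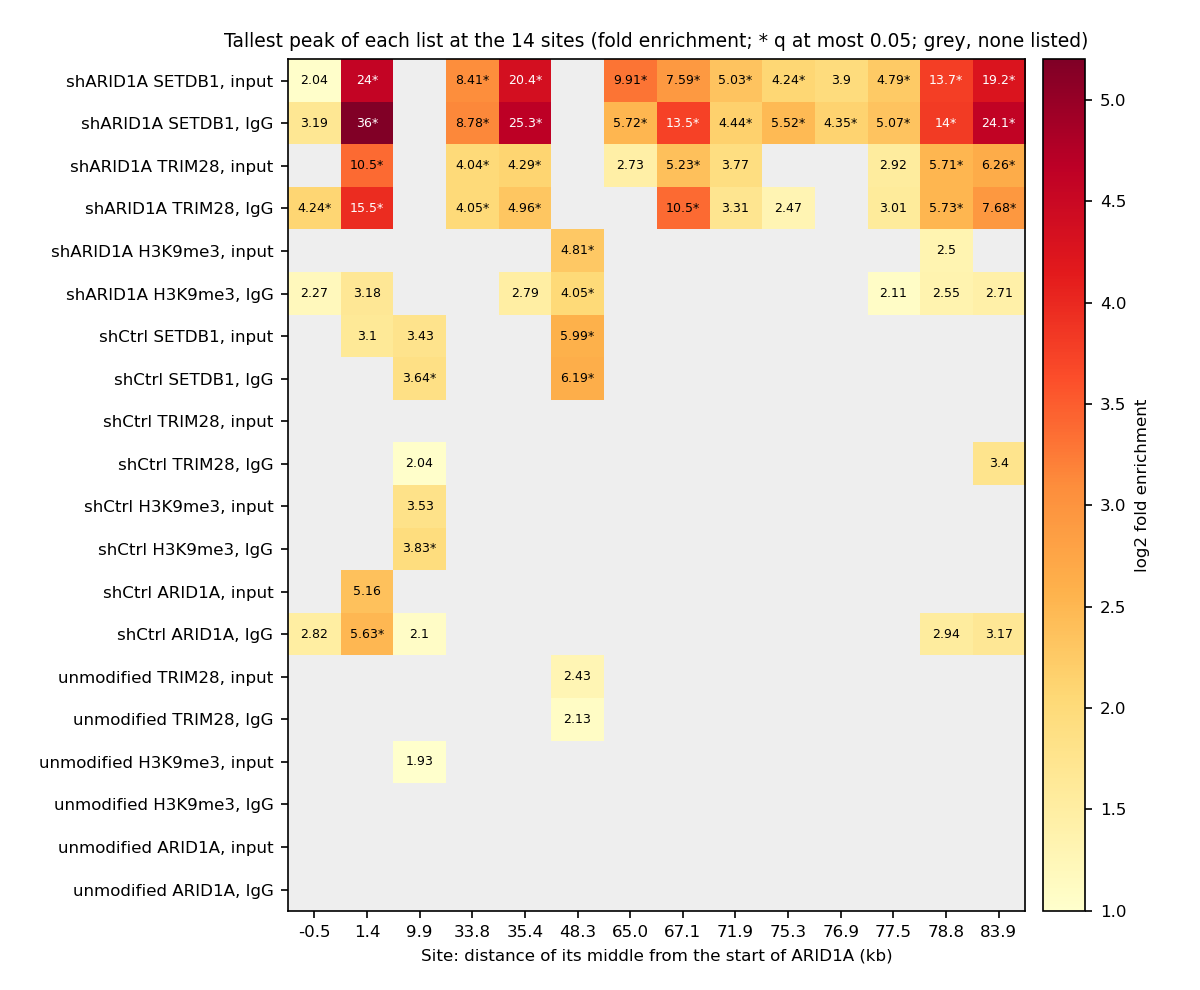
Fold enrichment of the tallest peak of each of the 20 lists (rows, library and control) at the 14 places with a strong peak in any list (columns, distance of the middle from the gene start in kb), coloured on a log2 scale. The shARID1A SETDB1 and TRIM28 rows are filled at 9 to 12 of the 14 places, and no shCtrl row at more than 5; shCtrl rows are filled at 1.4, 9.9, 48.3, 78.8 and 83.9 kb and upstream of the gene start.

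ARID1A ChIP in shCtrl cells placed all 5 of its peaks against input at the 5′ end, within 5.5 kb of the gene start. Their folds were 5.16, 3.72, 3.70, 2.75 and 4.32, from 8 to 11 fragments, and none was strong. The first, described above, ranked 45 of 108926 peaks. The last, at 26701256 to 26701491, ranked 662. Of the 5, 4 were listed against IgG too. Against IgG the library had 26 peaks spread over the gene, of which 1 was strong, and the median for the 5337 genes of similar length (within a factor of 2) was 11 peaks. At the strong SETDB1 peaks of shARID1A cells the shCtrl ARID1A list had a peak at 1 of 10 against input and at 3 of 11 against IgG. The genome-wide shares were 15.8% and 43.7%. Beside the first block, the places against IgG were 78.8 and 83.9 kb, with folds of 2.94 and 3.17.

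The ARID1A library of unmodified cells had 3 peaks in the gene against input and 7 against IgG, and none was at the 5′ end or at a strong site of any list. Those at 44.5 kb (26740500 to 26740747, fold 2.49) and at 76.0 kb (26772064 to 26772311, fold 2.73) were found with both controls. Neither met a peak of shCtrl ARID1A. The most common background was 1.13 fragments in shCtrl ARID1A and 3.09 in unmodified ARID1A, and a summit needed 4 and 8 fragments to be listed against input. TRIM28 of shCtrl cells had 2 peaks against input and 10 against IgG, with folds of 2.04 to 3.40, and the highest of these lay in the block at 83.9 kb (26779901 to 26780243).

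Outside the gene the shARID1A SETDB1 and TRIM28 libraries had no strong peak against input within 250 kb on either side. Against IgG there were 6 for SETDB1 and 2 for TRIM28, with folds of up to 5.01 and 5.51. In shCtrl cells SETDB1 had 15 strong peaks outside the gene against input, with folds of up to 9.02, and 1 in it. The nearest of these ran from 26692054 to 26693648, upstream of the gene and in the body of LOC124900417, with a fold of 8.33 against input and 11.3 against IgG. Against IgG, shARID1A SETDB1 had a strong peak of 5.01 at 26693169 to 26693770, in the same stretch. H3K9me3 was strong in this stretch too against IgG, in both states. Its fold was 4.12 in shARID1A cells (26692105 to 26693924) and 4.03 in shCtrl cells (26692764 to 26693205). Just inside the limits of the extended gene lay the TRIM28 peak at 26695056 with its fold of 4.24, and just outside a shCtrl TRIM28 peak at 26693764 to 26693990 with 2.53 and, at the far end, a shCtrl ARID1A peak at 26783170 to 26783618 with 2.11. Around the q threshold, the weakest strong peak was that of shARID1A TRIM28 at 33.8 kb against input (q 0.0491). The nearest that missed it were shCtrl SETDB1 at 9.9 kb against input (q 0.0632) and, among shARID1A lists, TRIM28 at 83.3 kb (q 0.0901).

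**Figure D5:**
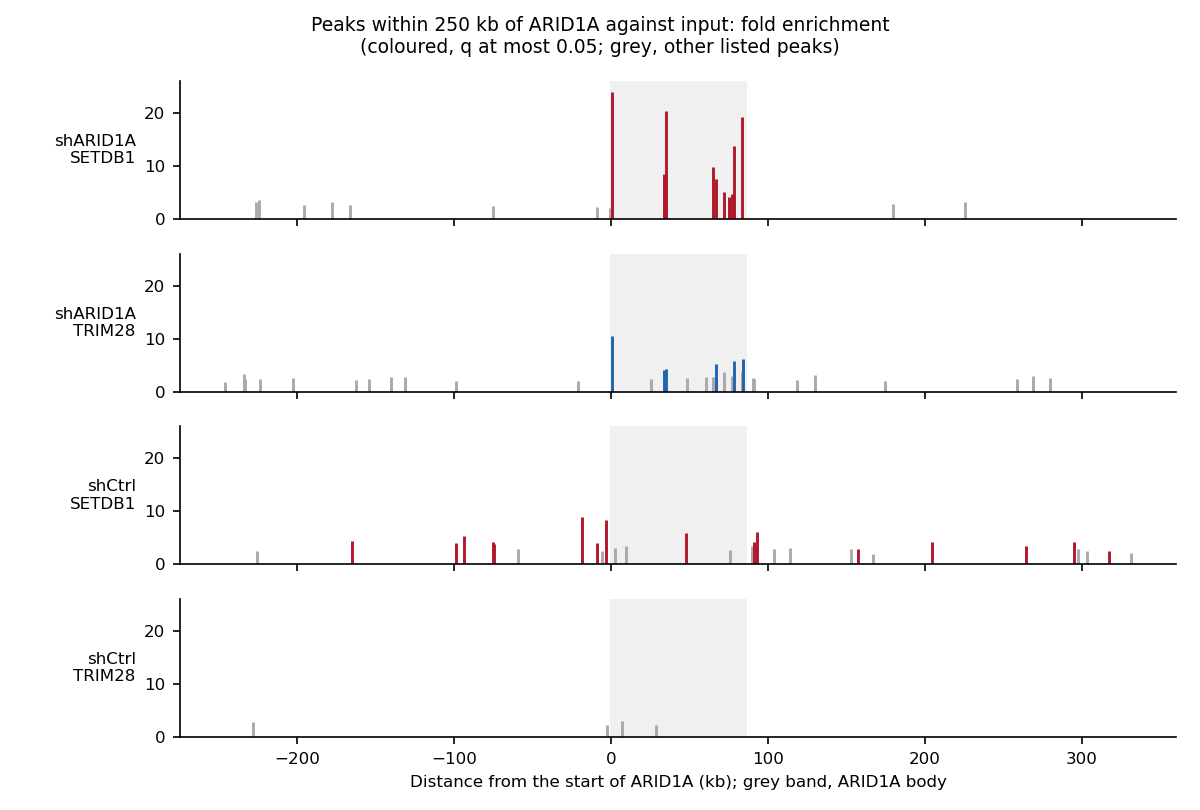
Peaks against input within 250 kb of ARID1A by distance from its start (kb) and fold enrichment (linear axis from 0), for shARID1A and shCtrl SETDB1 and TRIM28. All strong shARID1A peaks fall in the grey gene body, while 15 of the 16 strong shCtrl SETDB1 peaks fall outside it.

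Neighbouring genes were counted too. Of the 15 other protein-coding genes within 250 kb, among them HMGN2 (a nucleosome-binding protein), RPS6KA1 (a kinase of the ERK pathway), PIGV (a mannosyltransferase of GPI anchor synthesis) and SFN (the 14-3-3 sigma protein), 1 had a strong SETDB1 and TRIM28 peak in shARID1A cells against input. That was LOC124900417, through the tall peak it shares with ARID1A. Over all genes the shares were 3.91% for shARID1A SETDB1 and 3.88% for shARID1A TRIM28. In shCtrl SETDB1 8 of the 15 had a strong peak (43.5% of all genes), and in shCtrl TRIM28 0 (0.035%). Against IgG, 5 of the 15 had one in shARID1A SETDB1 (19.8% of all genes), 3 in shARID1A TRIM28 (10.4%) and 12 in shCtrl SETDB1 (58.1%). With 15 genes, nothing particular to the neighbours is read from these counts.

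Of 28 other genes for subunits of SWI/SNF complexes, 0 had a strong SETDB1 peak in shARID1A cells against input, where 3.91% of all genes had one, and their highest fold was 3.82. TRIM28 was strong in 2 (3.88% of all genes), ARID1B (the paralogue of ARID1A, fold 4.17) and BCL7A (fold 4.24), with 1 peak each. H3K9me3 was strong in 7 (17.4% of all genes). These were ARID2 (7.43), BCL7C (6.35), DPF3 (5.83), SMARCD2 (4.67), BICRA (4.19), SS18 (3.98) and ARID1B (3.43). In shCtrl cells SETDB1 was strong in 12 of the 28 (43.5% of all genes), up to 12.3 in ARID1B, H3K9me3 in 3 (11.7%), and TRIM28 (0.035%) and ARID1A (0.0851%) in 0. Against IgG, shARID1A SETDB1 was strong in 11 of the 28 (19.8% of all genes), TRIM28 in 5 (10.4%) and H3K9me3 in 15 (48.3%), with at most 2 strong SETDB1 peaks in a gene and a highest SETDB1 fold of 5.47. The median of the highest fold per gene in shARID1A SETDB1 against input was 2.82 in these 28 genes and 0, meaning no peak, over all 19974. Gene length was not matched between these genes and all genes, so the medians are not read as a difference. The counts of SETDB1 against input in both states lay near the shares of all genes and are no result about the subunits. The TRIM28 and SETDB1 genes had 0 strong peaks against input in the shARID1A lists, as most genes did (3.91% of all genes had one for SETDB1, 3.88% for TRIM28 and 17.4% for H3K9me3).

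The 5 genes most like ARID1A over the libraries were found by their ranks. The measure was the percentile of a gene's tallest fold among all genes, compared over the 10 input lists, for the 5336 protein-coding genes of similar length. The smallest mean absolute differences were 5.03 percentile points for FBXO34, 5.10 for MAPK8, 5.75 for ZNF451, 5.94 for KDM3A and 6.03 for ATL1, against a median of 38.5. FBXO34 encodes an F-box protein, MAPK8 the stress kinase JNK1, and KDM3A an H3K9 demethylase. Like percentiles did not mean like folds. In shARID1A SETDB1 the tallest fold was 24.0 in ARID1A, 4.31 in FBXO34, 3.59 in MAPK8, 4.09 in ZNF451, 3.89 in KDM3A and 4.62 in ATL1. In shARID1A TRIM28 it was 10.5 in ARID1A and 3.71 to 4.92 in the others, so ARID1A was higher in both lists. In shARID1A H3K9me3 it was 4.81 in ARID1A and 3.85 to 5.31 in the others. In shCtrl SETDB1 it was 5.99 in ARID1A and 5.46 to 10.8 in the others, with 1 strong peak in ARID1A and 2 to 4 in the others, so ARID1A was not the highest in these.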

How the data were processed

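Peak lists from ChIP-seq of 10 precipitated libraries were used, 2 per library. Per the submitters' processing notes, the tools were MACS2 2.2.7.1, Bowtie2 2.2.5, FastQC 0.11.9, ChIPseeker and deepTools 3.5.1, and the builds GRCh38 and hg38. No source used here gives their options, and only the name of a list gives its control. The deposited fold enrichment is a ratio of summit pileup to local background, and the deposited −log10 p and −log10 q come from the same call by the authors. The deposited score repeats −log10 p and was not used.

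Folds were read within a list. A peak with a q of at most 0.05 was called strong, and an overlap of at least 1 base counted as shared. Fold was taken as (pileup + 1) over (background + 1) and p as a Poisson tail, with the pileup a whole number of fragments times 1 scale per list (0.582 to 1). Of 400 sampled peaks in each list, 97.5% or more met that scale to within 1 bin of 0.0002. A peak was given fragments where 1 solution within 0.01 fragment of a whole number remained, which held for 151 of 159. The recovery of the scale was tested on simulated peaks of known scale, and that scale was returned. These simulated peaks held fewer fragments than the tallest peaks of the gene. PCR duplicates are not independent molecules, so intervals cover counting error only. Depth in total reads is unknown.

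Genes and promoter windows came from RefSeq tables of GRCh38.p14. With 1 library per group no test was run. Named genes were the neighbours within 250 kb, SWI/SNF subunits (older symbols left out), TRIM28 and SETDB1, the 5 genes most like ARID1A, and the next genes by number of strong peaks. These last, and the parts of the gene, were chosen after values were seen. The members and lists were chosen with earlier results of these data known. Python 3.11.15, NumPy 2.4.6, SciPy 1.17.1, pandas 2.3.3 and matplotlib 3.10.9 were used. Alternatives were IgG lists, a q of at most 0.01, every listed peak, an extension of 0 or 5 kb, and overlap of 0.5 of the shorter peak.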

Additional observations from a re-analysis of the deposited data

How the results depend on the processing

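Of 86 recomputed values 71 stayed within 1.5 times the count, or within the counting interval of the fold, and 15 moved. Among the 71, the fragment numbers at the highest 5′ peak could not differ, since both lists came from 1 library. Dropping the extension left every count and highest fold at its main value, so the 71 are not a measure of robustness. Against IgG the highest fold became 36.0 in shARID1A SETDB1 and 15.5 in shARID1A TRIM28, and the strong peaks became 2 in shCtrl SETDB1, 1 in shCtrl H3K9me3 and 1 in shCtrl ARID1A. With every listed peak, shARID1A TRIM28 had 13 and H3K9me3 2, shCtrl SETDB1 had 4, TRIM28 2, H3K9me3 5 and ARID1A 5, and unmodified TRIM28 had 2, H3K9me3 2 and ARID1A 3. An extension of 5 kb gave 2 strong peaks in shCtrl SETDB1, since it took in the peak upstream of the gene. Taking every listed peak drops the threshold by construction, and the cause of the changes against IgG was not tested. A q of at most 0.01 moved none of the counts by over 1.5 times. It did take shARID1A TRIM28 from 6 strong peaks to 4, without those at 33.8 kb (q 0.0491) and 35.4 kb (q 0.01005). Overlap of 0.5 of the shorter peak left the share of strong TRIM28 peaks at strong SETDB1 peaks at 100%, and the IgG lists gave 85.7%. No paired analysis was possible because each group held 1 library and no test was run. Depth limits the low end: peaks short of strong rested on 3 to 12 recovered fragments, and a site without a listed peak is not shown to lack signal.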
